A study of Mus musculus with 37 samples.

Results

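Glial or Schwann-like cells were looked for among mouse embryonic fibroblasts that had been infected with a pool of reprogramming factors. Members were chosen by measured counts. A cell was taken as glial when it held at least 1 count in 2 or more of 6 marker genes, Sox10, Cdh19, Lgi4, Gldn, Ngfr and Fxyd3. Of 8565 cells, 150 met this rule. Because measured counts chose these cells, the 6 genes are described below with no test, and all tests are on other genes.

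The cells were fibroblast cultures of ICR background, and every library received the same treatment: retroviral vectors carrying 48 factors chosen around the cardiac system, followed by 7 days of culture. Drop-seq, which captures the polyadenylated RNA of single cells on barcoded beads, gave 37 samples that are technical replicates of 1 biological replicate. No uninfected cells are analysed here, so glial cells were compared with other cells of the same library. All p-values therefore measure the spread between libraries of 1 culture. This spread holds technical differences and the sampling of cells into each library, and no biological replication. The 36 libraries left after replicates 4 and 6 were joined, since they shared 59 cell barcodes, and called replicate 4 below, held 70 to 548 cells each, with a median of 3563 to 15695 counts per cell.

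Schwann cells and their precursors are the glia of peripheral nerves and arise from the neural crest. They migrate along axons, depend on neuregulin signalling through Erbb3 and its partner Erbb2, and later either wrap axons in myelin or stay non-myelinating. After nerve injury they take on a repair state that depends on the transcription factor Jun. Sox10 is the transcription factor that specifies and maintains the lineage, Ngfr is the low-affinity neurotrophin receptor of immature Schwann cells, Cdh19 is a cadherin of Schwann cell precursors, Gldn (gliomedin) helps to assemble nodes of Ranvier, Lgi4 is a secreted protein that signals through Adam22 for myelination, and Fxyd3 is a regulator of the sodium pump.

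The 6 genes of the rule are not 6 independent loci. In the GENCODE M21 annotation of build GRCm38, Lgi4 lies on the plus strand at chr7:31059342-31070935 and Fxyd3 on the minus strand at chr7:31068172-31076704, and their exons share 2059 bases, which are 44.9% of the exonic bases of Lgi4 and 42.5% of those of Fxyd3. The first 30 shared bases, chr7:31068877-31068906, are shown because a read from them belongs to either gene unless its strand is used. They lie in the coding part of the last exon of Lgi4, and each run is read 5′ to 3′ on the strand of its own gene, so that one is the reverse complement of the other.
Lgi4: gtcatgcgctgggacggctccatgttccga
Fxyd3: tcggaacatggagccgtcccagcgcatgac
Whether the authors' counting used strand is not given in the sources used here, and reads of the shared bases cannot be told apart without it.

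The counts followed this overlap. Of 124 cells with a count in either gene, 111 had counts in both, and in 85 cells the counts of both genes were the same number. Lgi4 alone was counted in 12 cells and Fxyd3 alone in 1 cell, and only 11 cells differed by more than 1 count. Over all cells, Lgi4 had 261 counts and Fxyd3 220 counts. For 36 of the 150 glial cells this pair was all that met the rule. These are called Lgi4-Fxyd3-only cells here, and the other 114 cells, which held at least 2 of 5 separate loci, are called core glial cells.

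**Figure D1:**
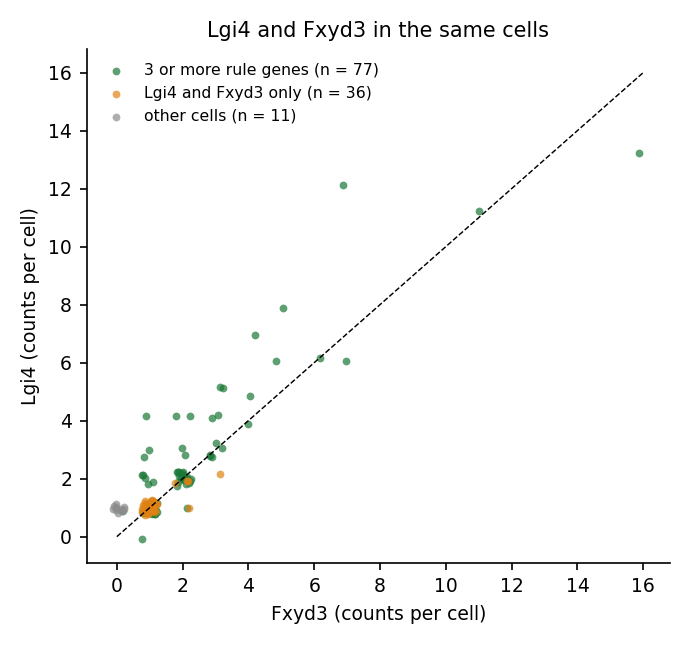
Counts of Lgi4 (vertical axis) and Fxyd3 (horizontal axis) in each cell that held a count of either gene, with points spread slightly so that they do not hide each other and a dashed line where both counts are equal. Most cells lie on or next to the line, the 36 Lgi4-Fxyd3-only cells among them.

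The core cells often held many of the genes together. All 6 genes were counted in 33 cells, 5 in 18 cells, 4 in 16 cells, 3 in 25 cells and 2 in 58 cells, the last including the 36 Lgi4-Fxyd3-only cells. Among the core cells Ngfr was counted in 89 cells (78.1%), Cdh19 in 86 (75.4%), Lgi4 in 78 (68.4%), Fxyd3 in 76 (66.7%), Gldn in 72 (63.2%) and Sox10 in 70 (61.4%). In the 8415 other cells the shares were 1.09% for Ngfr, 0.463% for Cdh19, 0.107% for Lgi4, 1.87% for Gldn and 0.131% for Sox10. Fxyd3 was not counted in them, which the rule and the overlap with Lgi4 largely set, since a cell with both genes was a member. Of the 81 cells with a Sox10 count, 70 were members. The rule itself keeps all these shares low, since a cell outside it can hold at most 1 of the 6 genes.

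The label was checked on 7 further Schwann lineage markers that the rule did not use: Erbb3, Foxd3, S100b, Fabp7, Gap43, Egr2 and Mbp. At least 2 of them were counted in 85 of the 114 core cells (74.6%, exact 95% interval 65.6 to 82.3%), against 16 of 327 depth-matched cells (4.89%, 2.82 to 7.82%). The 327 cells were matched to 109 of the core cells, those of libraries with at least 2 of them, and 81 of these 109 (74.3%) had 2 of the markers. In the Lgi4-Fxyd3-only cells the share was 4 of 36 (11.1%, 3.11 to 26.1%), which overlaps the 13.3% (9.72 to 17.6%) of the 308 cells just outside the rule with 1 rule gene. Cells just inside it, with exactly 2 rule genes, reached 25.9%, and 11 of the 22 with another pair than Lgi4 and Fxyd3 had 2 of the markers. With 4 or more rule genes 58 of 67 cells had 2 of the markers. The intervals cover counting error only.

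**Figure D2:**
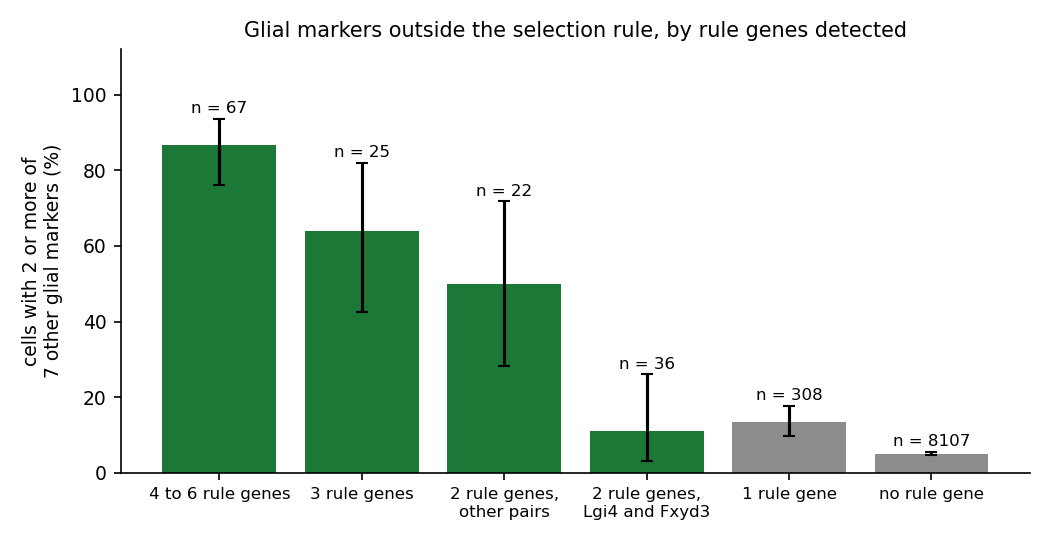
Share of cells (%) with 2 or more of 7 glial markers outside the rule, by the rule genes counted in the cell, with exact 95% binomial intervals and the number of cells above each bar. Cells with 4 to 6 rule genes stand at 86.6%, while cells that met the rule through Lgi4 and Fxyd3 alone stand at 11.1%, near the 13.3% of cells with 1 rule gene.

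Erbb3, the neuregulin receptor of the lineage, was counted in 65.7% of cells with 4 or more rule genes and in 52.6% of all core cells, against 5.56% of Lgi4-Fxyd3-only cells, 2.92% of cells with 1 rule gene and 0.927% of all other cells. Among cells with skeletal muscle markers that were not members, its share was 13.1%. On these markers the core cells carried the glial label, and the Lgi4-Fxyd3-only cells did not. The Lgi4-Fxyd3-only cells were also deeper, with a median of 23812 counts per cell against 7587.5 in core cells, and 9 of the 36 had 3 or more mesothelial markers. Calls over all genes and over all factors are counted below for all members and for core cells. Results of the gene lists are those of core cells unless all members or the Lgi4-Fxyd3-only cells are named.

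Other cell types were marked the same way, by 3 or more rarely counted markers of a type. Skeletal muscle markers were carried by 10 of the 150 members and by 346 of all cells, mesothelial markers by 14 members and 344 cells, and macrophage markers by 1 member and 66 cells. Among the core cells these were 7, 5 and 1 cells. Doublets were not called. With the 5% of cells of highest count left out of each library, 132 members were compared in place of 146, and 450 genes were higher and 292 lower.

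The glial cells were spread over the culture. Members made up 1.75% of all cells (150 of 8565, exact 95% interval 1.48 to 2.05%) and core cells 1.33% (1.10 to 1.60%). Members were found in 33 of the 36 libraries, at 0 to 3.74% of cells (median 1.54%, mean 1.69 ± 1.00%, SD). The intervals of the share overlapped between the 3 series of libraries that the labels' names set apart. The share was 1.79% in the JD series (59 of 3296 cells, 1.37 to 2.30%), 1.75% in the PZ47-PZ48 series (66 of 3767, 1.36 to 2.22%) and 1.66% in the PZ58 series (25 of 1502, 1.08 to 2.45%). At a fixed depth of 4000 counts per cell, which left out 966 shallower cells, 77 of 7599 cells met the rule (1.01%, 0.800 to 1.26%), and 71 of them (0.934%) through 2 or more loci.

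For the comparison of all genes, counts of the members of each library were summed, as were counts of 3 other cells per member with the nearest total count in the same library. In 29 libraries with at least 2 members, 146 glial cells (median 9122 counts) were set against 438 matched cells (median 9196.5 counts). The core cells gave 109 against 327 cells in 27 libraries (medians 7519 and 7475 counts). Summed counts were tested with edgeR's quasi-likelihood test with the library as a block, and p-values were adjusted by the Benjamini-Hochberg method over all genes with at least 20 counts. Among 13021 genes, 404 were higher (3.1% of genes tested) and 222 lower (1.7%) in the glial cells at an adjusted p under 0.05. For the core cells, 513 of 12296 genes were higher (4.17%) and 337 lower (2.74%). Of the 404 genes higher in all members, 373 were also higher in the core cells, and none of the 404 or of the 222 lower genes was called in the other direction there. The Lgi4-Fxyd3-only cells, 26 against 78 cells in 8 libraries, gave 24 genes higher (0.233%) and 17 lower (0.165%) of 10301.

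Genes of Schwann cell precursors and immature glia were the most shifted list. Of its 27 measured genes, 24 were tested in the core cells, of which 20 were higher and 1 lower, with a median log2 fold change of 3.17 against -0.03 over all genes. The median was the same with the 2 genes at 0 in matched cells set at their bound. In all members 18 of 25 tested were higher and none lower, with a median of 2.54. Art3 among others had too few counts to be tested, with 6 counts in the core cells. Dhh, a signalling ligand that Schwann cells secrete, had 14 counts against 1 in the core comparison and so was under the filter. It passed in all members (2.11 ± 0.61, edgeR adjusted p = 0.029), but lost its call when any 1 of 8 libraries was left out, with adjusted p-values up to 0.0793. This list, like the others, was drawn up with results of these data known, so its counts are a description. Beside the counts of each list stand the shares over all genes tested, 4.17% higher and 2.74% lower in core cells.

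Several receptors and adhesion molecules of the precursor list were higher, while Gfra2, Cadm2 and Ptprz1 did not pass and Ncam1, described below, was lower. Levels are given as counts per 1000000 counts of a library's sum (CPM). Erbb3 had 0 to 255 CPM per library (median 60.6) in core cells against 0 to 16.9 CPM (median 0) in matched cells, higher in 24 of 27 libraries (log2 fold change 4.90 ± 0.38, edgeR adjusted p = 3.89e-17). L1cam, an axon-glia adhesion molecule whose exons overlap Arhgap4, had 0 to 372 CPM (median 93.9) against 0 to 20.5 CPM (median 0), higher in 26 of 27 libraries (5.50 ± 0.33, edgeR adjusted p = 2.59e-22). Cadm4, the adhesion molecule by which Schwann cells contact axons, had 20.1 to 1221 CPM (median 256) against 0 to 65.4 CPM (median 0) and was higher in all 27 libraries (5.47 ± 0.26, edgeR adjusted p = 5.42e-28). Nrcam, a relative of L1cam, was higher by 3.98 ± 0.33 and Itga4, an integrin subunit, by 2.08 ± 0.33. The GDNF family co-receptor Gfra3 was higher by 3.51 ± 0.43 and the endothelin receptor Ednrb by 2.42 ± 0.36.

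Transcription factors of the lineage followed. Foxd3, an early neural crest and glial factor, had 0 to 198 CPM per library (median 20.8) in core cells and was listed at 0 in all 327 matched cells. Taking a floor of 3 counts over the matched cells, its level was at least 46.4-fold higher (edgeR adjusted p = 2.88e-09). Sox2, which keeps Schwann cells immature, had 64 counts against 1 count, and a median of 29.8 against 0 CPM per library, a ratio of 190 (95% counting interval 32.8 to 7600) (edgeR adjusted p = 7.87e-14). Tfap2a, a factor of neural crest and Schwann cell precursors, was higher by 3.53 ± 0.47 and Sox6 by 2.90 ± 0.37. Sox5, whose exons overlap Sox5os1, passed in core cells at 1.58 ± 0.46 (edgeR adjusted p = 0.02) but not without replicate 16 (1.43 ± 0.48, edgeR adjusted p = 0.0562) and not in all members.

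Gap43, S100b and Fabp7 had a background in the rest of the culture. Gap43, a growth cone and precursor protein, had a median of 554 CPM per library in core cells against 28.3 CPM in matched cells and was counted in 74.6% of core cells and 22.0% of matched cells (3.70 ± 0.22, edgeR adjusted p = 4.57e-23). S100b, a calcium-binding glial protein, had medians of 76.9 and 0 CPM (3.07 ± 0.36, edgeR adjusted p = 6.80e-10). Fabp7, a fatty acid binding protein of precursors, passed in core cells (2.30 ± 0.46, edgeR adjusted p = 0.000161) and not in all members (edgeR adjusted p = 0.166). The gene that was lower was Ncam1, an adhesion molecule of immature Schwann cells and of other mesenchyme, at a median of 136 against 256 CPM (-0.58 ± 0.18, edgeR adjusted p = 0.0357), which did not pass with all members (-0.26 ± 0.16). The call of Ncam1 was lost when any 1 of 9 libraries was left out, with adjusted p-values up to 0.0906.

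**Figure D3:**
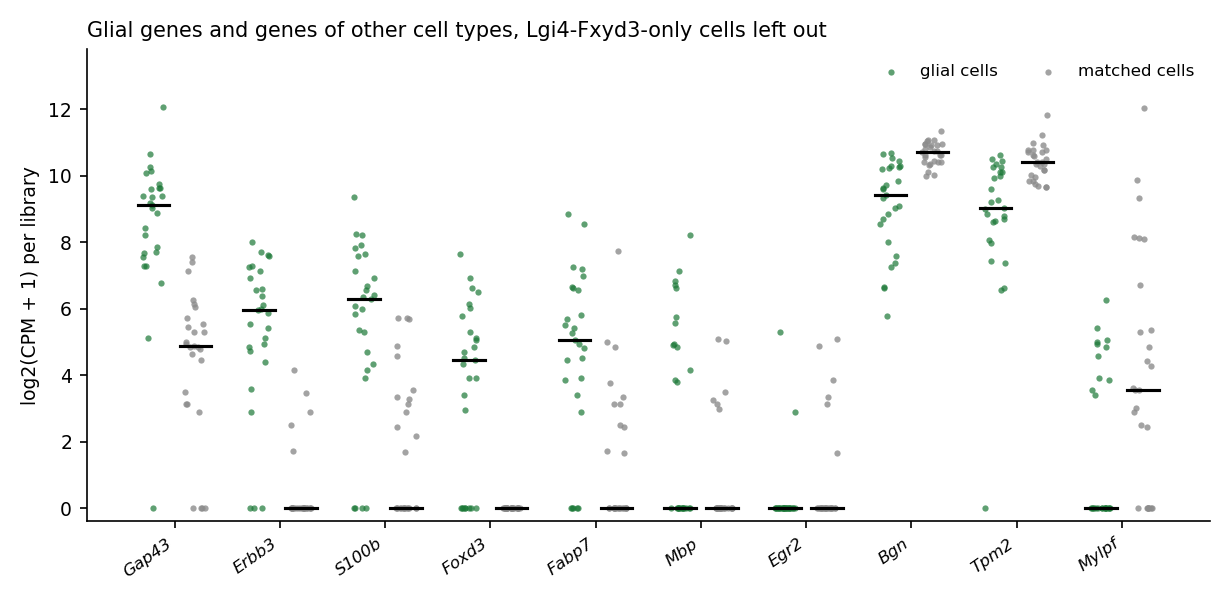
Level per library, as log2(CPM + 1), of the 7 markers used to check the label and of 1 gene each of the fibroblast (Bgn), smooth muscle (Tpm2) and skeletal muscle (Mylpf) lists, in core glial cells (green, left of each pair) and matched cells (grey, right) of 27 libraries, with a bar at the median. Gap43 and Erbb3 lie higher in glial cells, Egr2 is near 0 in both, and Bgn and Tpm2 lie lower in glial cells.

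Few genes of the myelin programme had enough counts to be tested. Of 18 measured genes in this list only 7 reached 20 counts in the core comparison, of which 4 were higher and none lower, with a median log2 fold change of 1.47. Gjc3, a gap junction protein of myelinating glia, had 58 counts in core cells, spread over 20 libraries, and none in matched cells, a level at least 57.2-fold higher (edgeR adjusted p = 2.27e-10). Mbp, myelin basic protein, was higher with 34 counts against 11 (2.73 ± 0.54, edgeR adjusted p = 0.000194), although 14 of the 27 glial sums held none. Cnp, a myelin phosphodiesterase that other cells express too, had medians of 74.1 and 29.8 CPM (1.47 ± 0.23), and Plekhb1 was higher by 2.06 ± 0.48. Cnp shares exonic bases with Dnajc7 in the annotation, so its counts are uncertain.

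The genes that mark the step into myelination stayed at or near 0. Egr2, the transcription factor that drives myelination, was counted in 1.75% of core cells and in 3.80% of all other cells, so at this depth it gave no sign above the rest of the culture. Pou3f1, which precedes Egr2, had 4 counts against 0, and Mag had 4 counts against 2. Gjb1, Fa2h and Ugt8a had no counts in either set. Pmp22, which fibroblasts also make, did not differ beyond its error (log2 fold change -0.18 ± 0.18, edgeR adjusted p = 0.716).

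Genes of glial signalling and adhesion were mixed. Of 15 genes tested in core cells 5 were higher and 1 lower, and the median log2 fold change was 0.10. Chl1, a relative of L1cam, stood apart with medians of 82.6 and 0 CPM (5.08 ± 0.36, edgeR adjusted p = 1.25e-18). Itga6, the laminin receptor subunit of Schwann cells, had medians of 179 and 22.1 CPM (2.70 ± 0.27, edgeR adjusted p = 6.62e-13). Matn2, a matrix protein whose exons overlap 9430069I07Rik, was higher by 1.90 ± 0.22, and the semaphorins Sema3b and Sema3e by 2.13 ± 0.34 and 1.32 ± 0.37. Sema3e lost its call without replicate 9 (edgeR adjusted p = 0.0556) or 36 (edgeR adjusted p = 0.0643). The lower gene was Egfr, the receptor of epidermal growth factor, with medians of 13.3 and 49.7 CPM (-1.23 ± 0.29, edgeR adjusted p = 0.00214).

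The partners of the rule's ligand and of Erbb3 did not pass. Adam22, the receptor of Lgi4, had 14 counts in core cells against 36 in matched cells (0.22 ± 0.54). Adgrg6, the G protein-coupled receptor that starts myelination, had medians of 31.0 and 39.9 CPM (-0.06 ± 0.27). Erbb2, the kinase partner of Erbb3, had medians of 9.62 and 12.8 CPM (0.20 ± 0.39), and Nrg1, the ligand of Erbb3, had -0.55 ± 0.36. Their edgeR adjusted p-values lay between 0.496 and 0.963.

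Of 11 genes of the repair Schwann cell list, 9 were tested in core cells, of which 4 were higher and none lower. Jun, the central factor of the repair state, had 128 to 910 CPM per library (median 379) against 65.4 to 256 CPM (median 131), higher in 26 of 27 libraries (1.55 ± 0.15, edgeR adjusted p = 1.94e-13). Artn, a GDNF family ligand that injured Schwann cells release, had medians of 55.2 and 0 CPM (4.34 ± 0.41, edgeR adjusted p = 2.81e-13). Gdnf itself had medians of 25.6 and 0 CPM (3.50 ± 0.46, edgeR adjusted p = 2.39e-08), and Sox4 was higher by 0.58 ± 0.14. Olig1, which passed among all members with 20 counts against none in 6 libraries, had 17 counts in 4 libraries of the core cells and was under the filter there. Shh, a marker of repair cells in mouse nerves, had no count, and Bdnf was not higher (-0.43 ± 0.18, edgeR adjusted p = 0.16). Jun overlaps the annotated gene Junos, so its counts are uncertain to that extent.

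Among 7 tested neural crest genes 2 were higher and 1 lower. Pax3, a factor of neural crest and immature Schwann cells, had 28 counts against 2, a ratio of 41.5 (95% counting interval 10.5 to 359) (edgeR adjusted p = 3.51e-06), in 12 of 27 libraries. Ets1 had medians of 135 and 38.4 CPM (1.71 ± 0.23, edgeR adjusted p = 1.37e-08). Crabp1, a retinoic acid binding protein, was lower at medians of 152 and 480 CPM (-0.97 ± 0.24, edgeR adjusted p = 0.00472). Snai2 and Sox9, which many mesenchymal cells express, had log2 fold changes of 0.07 ± 0.16 and -0.07 ± 0.42.

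Melanocytes and peripheral neurons also arise from the neural crest. No melanocyte gene passed of 4 tested, and Tyrp1, Slc45a2 and Gpr143 had no counts in either set. Of 6 neuronal genes tested, Tubb3 alone passed, with medians of 92.6 and 9.42 CPM (2.64 ± 0.30, edgeR adjusted p = 1.70e-10). The other tested neuronal genes did not pass, at log2 fold changes from -0.16 (Phox2a) to 0.42 ± 0.39 (Stmn2), with Uchl1 at 0.36. Elavl4 had 0 counts in the core cells against 10 in matched cells, and Th, Prph and Snap25 were at 0 in the core cells. These 4 had too few counts to be tested. The summed level of the list, Tubb3 included, had medians of 268 and 153 CPM per library.

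Several genes with large changes were on none of the glial lists. Fgf5, a fibroblast growth factor, had 207 counts in core cells against 2 in matched cells, with medians of 124 and 0 CPM per library and a ratio of 306 (95% counting interval 83.8 to 2550) (edgeR adjusted p = 1.03e-25). B3galt2, a galactosyltransferase, had medians of 62.0 and 0 CPM (5.62 ± 0.36, edgeR adjusted p = 1.11e-20), and overlaps exons of Cdc73. Gm12688, a noncoding RNA gene at chr4:99653607-99654983 on the minus strand, whose nearer end lies 1315 bases before the start of Foxd3 on the plus strand, had 78 counts in core cells and none in matched cells, at least 77.0-fold higher (edgeR adjusted p = 2.00e-12). Apod, the lipid carrier apolipoprotein D that glia make, was the most abundant of the group at 67.4 to 6948 CPM (median 1186) against 0 to 122 CPM (median 15.4), higher in all 27 libraries (5.27 ± 0.25, edgeR adjusted p = 2.76e-28).

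The rest of this group were membrane proteins and a nuclear factor. Kcna1, a potassium channel subunit, had 89 counts against 2, a ratio of 132 (95% counting interval 35.4 to 1100) (edgeR adjusted p = 1.91e-17). Pcdh20, a protocadherin, was higher in all 27 libraries at medians of 161 and 0 CPM (5.06 ± 0.30, edgeR adjusted p = 1.24e-22). Zfp536, a zinc finger protein, had 64 counts against 3 and medians of 40.3 and 0 CPM, a ratio of 63.2 (95% counting interval 20.7 to 314) (edgeR adjusted p = 4.00e-14). In the Lgi4-Fxyd3-only cells none of 10 tested genes of the precursor list passed, at a median log2 fold change of -0.85, and Apod and Cadm4 had -1.04 ± 0.61 and -0.07 ± 0.83.

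Fibroblast genes were lower in part. Of 25 genes 10 were lower and 2 higher in core cells, with a median log2 fold change of -0.63, and 8 were lower and 2 higher in all members, with a median of -0.31. Bgn, a matrix proteoglycan, had 53.3 to 1628 CPM (median 679) in core cells against 1016 to 2570 CPM (median 1657) in matched cells, lower in 26 of 27 libraries (-1.27 ± 0.16, edgeR adjusted p = 5.89e-09). The collagen genes Col1a1 and Col1a2 fell less, by 0.66 ± 0.13 and 0.96 ± 0.15 on the log2 scale, and Col1a1 still had a median of 2617 CPM in core cells against 3827 CPM in matched cells. Prrx1, a mesenchymal transcription factor, fell by 1.02 ± 0.19 and Thy1 by 1.16 ± 0.22. Col3a1, Sparc and Col5a2 did not pass, with -0.25 ± 0.13, -0.02 ± 0.09 and 0.02 ± 0.12. The higher genes were Vim (0.74 ± 0.10) and Postn, a matrix protein that is also on the precursor list (1.45 ± 0.20, edgeR adjusted p = 2.32e-08). Whether the collagen counts came from the glial cells or from free RNA of the culture was not tested.

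Contractile genes were lower too. Of 14 smooth muscle genes 9 were lower and none higher in core cells, with a median log2 fold change of -1.11. In all members 10 of the 14 were lower and none higher, with a median of -0.99. Acta2, smooth muscle actin, had medians of 2079 and 4596 CPM (-1.22 ± 0.18, edgeR adjusted p = 1.95e-07), and Cald1, caldesmon, was lower in all 27 libraries at medians of 2086 and 3759 CPM (-1.04 ± 0.12, edgeR adjusted p = 2.58e-10). Myh11, smooth muscle myosin, had the largest change of the list (-2.40 ± 0.31, edgeR adjusted p = 8.42e-09). Tpm2, Cnn1 and Lmod1 were lower by about the same amount, at -1.10 ± 0.17, -1.13 ± 0.23 and -1.09 ± 0.23.

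The skeletal muscle genes rested on few matched cells. Of 19 tested 6 were lower and none higher in core cells, with a median log2 fold change of -1.50 (-1.46 with the gene at 0 in core cells at its bound). In all members 10 of 19 were lower and none higher, with a median of -2.02. Mylpf, a fast muscle light chain, had 0 to 75.8 CPM (median 0) in core cells against 0 to 4231 CPM (median 10.8) in matched cells (-2.82 ± 0.46, edgeR adjusted p = 4.60e-06), and the ranges overlapped. Ttn, the giant spring protein of the sarcomere, skeletal actin Acta1 and the fusion protein Mymk were lower with log2 fold changes of -1.84 ± 0.49, -1.57 ± 0.41 and -1.96 ± 0.63. The call of Ttn was lost without replicate 4 (edgeR adjusted p = 0.0546) or 28 (0.0685), and that of Mymk when any 1 of 7 libraries was left out, with adjusted p-values up to 0.223. The embryonic myosin Myh3 had 1 count against 223, a ratio of 0.0133 (95% counting interval 0.000335 to 0.0747), and troponin Tnnt3 had 3 against 191, a ratio of 0.0465 (95% counting interval 0.00951 to 0.138). Outside the list, cardiac actin Actc1 was lower (-3.09 ± 0.49), and so were Lmod3 (2 against 122 counts), the cardiac myosin Myh6 (2 against 125 counts) and Srl (1 against 45 counts). Myh6 fell by 2.69 on the log2 scale with all 27 libraries and had -0.73 ± 0.76 without replicate 9 (edgeR adjusted p = 0.739), and its call was also lost without replicate 28 or 30. Srl lost its call without replicate 5 or 25, with adjusted p-values up to 0.0612. The summed level of the list ran from 0 to 5578 CPM per library in core cells (median 93.0) and from 27.4 to 15594 CPM in matched cells (median 196). Skeletal muscle markers, 3 or more of them, were carried by 10 of the 150 members (6.67%) and by 21 of the 438 cells matched to all members (4.79%).

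A further set of lower genes was counted in a handful of libraries only. Mmp12, a macrophage elastase whose exons overlap Mmp1b, had 1 count in core cells against 438 in matched cells, a ratio of 0.00676 (95% counting interval 0.000171 to 0.0379), and was lower in 3 of 27 libraries and at 0 in both sets in the others. Saa3, an acute-phase protein, had 0 against 198 counts, from 5 libraries, Gzmd 0 against 52 counts, from 6 libraries, Mmp8 0 against 60 counts, from 3 libraries, and Arpp21 0 against 31 counts, from 6 libraries. These are sums that 1 library can set. Without replicate 7, Mmp12 had -0.83 ± 0.60 (edgeR adjusted p = 0.55), Mmp8 -0.47 ± 0.48 (0.723) and Saa3 -2.73 ± 0.81 (0.0263). Gzmd lost its call without replicate 9 (-2.10 ± 0.79, edgeR adjusted p = 0.112) or 25 (0.0527), and Arpp21 when any 1 of 4 libraries was left out, with adjusted p-values up to 0.209. With all 27 libraries their edgeR adjusted p-values ran from 5.34e-06 to 0.0398. In DESeq2's Wald test of all members, Mmp12, Saa3, Gzmd, Mmp8, Arpp21, Myh3 and Myh6 had positive log2 fold changes of 0.35 to 1.28, with standard errors of 2.92 to 2.93. Saa3 did not pass in edgeR with all members (-1.80 ± 0.84, edgeR adjusted p = 0.295), nor did Mmp8 (edgeR adjusted p = 0.0562).

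The mesothelial list differed between core cells and Lgi4-Fxyd3-only cells in what passed, which was not tested as a difference. Of 10 mesothelial genes tested in core cells none was higher and Krt18 was lower (-1.29 ± 0.28), and the summed level of the list ran from 50.5 to 5633 CPM per library in core cells (median 372) and from 83.2 to 1725 CPM in matched cells (median 498). In all members 3 mesothelial genes were higher, Msln (1.70 ± 0.45, edgeR adjusted p = 0.0132), Lrrn4 and Rspo1, and in core cells Msln had -0.47 ± 0.47. In all members Msln lost its call without replicate 19, 30 or 31 and Lrrn4 without replicate 19, 30 or 37, with adjusted p-values up to 0.0696 and 0.109. In the Lgi4-Fxyd3-only cells 5 of 11 mesothelial genes tested were higher, at a list median of 2.27. There Upk3b, a uroplakin of mesothelium, had 208 counts in 26 cells against 2 counts in 78 matched cells, a ratio of 313 (95% counting interval 85.5 to 2600), higher in 5 and lower in 2 of 8 libraries (edgeR adjusted p = 5.37e-10), and Msln, mesothelin, 130 against 35 counts (3.40 ± 0.49, edgeR adjusted p = 5.17e-05).

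Of the macrophage, endothelial and keratinocyte lists, 6 of 15, 5 of 12 and 2 of 10 measured genes were tested in core cells. Over all genes tested, 4.17% were higher and 2.74% lower. Of the tested genes of these lists none was higher, and 1 of each list was lower. These were Ctss (0 against 82 counts, from 2 libraries), Ecscr (edgeR adjusted p = 0.0315) and Perp (-1.59 ± 0.27, edgeR adjusted p = 6.09e-06). Ctss lost its call without replicate 7 (-2.11 ± 0.80, edgeR adjusted p = 0.114) and Ecscr lost its call when any 1 of 7 libraries was left out, with adjusted p-values up to 0.0725. The defining macrophage genes C1qa, C1qb, C1qc and Adgre1 were at 0 in the core cells, as were Pecam1, Cdh5, Tek, Tie1 and Cldn5 of endothelium and Krt5, Krt15, Krt17, Trp63 and Cdh1 of keratinocytes. All of these had too few counts in the core comparison to be tested, so their zeros do not set core cells apart from matched cells. The tested macrophage genes other than Ctss did not pass, at log2 fold changes from -0.99 (Lyz2) to 1.53 (Laptm5). The summed level of the macrophage list ran from 0 to 93.9 CPM per library in core cells (median 33.7). In matched cells it ran from 0 to 979 CPM (median 27.7), so the median was not lower in core cells.

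Cell cycle genes did not pass in the core cells. No gene of 20 S phase and 22 G2 and M phase genes passed, with median log2 fold changes of -0.14 and -0.24. The shares over all genes tested, for this and the next lists, were 4.17% higher and 2.74% lower in core cells. In all members they were 3.1% and 1.7%. In all members 4 G2 and M phase genes were lower, Cenpe, Cdc20, Aurka and Tpx2, at log2 fold changes of -0.91 to -0.72. Aurka lost its call when any 1 of 16 libraries was left out, Tpx2 with any 1 of 17 left out, and Cdc20 without replicate 9. Cdc20 shares exonic bases with Elovl1. The interferon list had 1 gene higher (Ifit2, 0.99 ± 0.32, with an adjusted p of up to 0.107 when any 1 of 13 libraries was left out) and 1 lower (Ifi27, -0.73 ± 0.20) of 13. Among 13 targets of BMP and TGF-beta, Ccn2 (-1.23 ± 0.21), Ccn1 (-0.83 ± 0.17) and Ltbp2 (-0.94 ± 0.24), whose exons overlap D030025P21Rik, were lower and Bambi (1.06 ± 0.32) and Tgfbi (0.86 ± 0.21) higher. Bambi lost its call without replicate 17 (edgeR adjusted p = 0.0509) or 24 (0.0628).

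**Figure D4:**
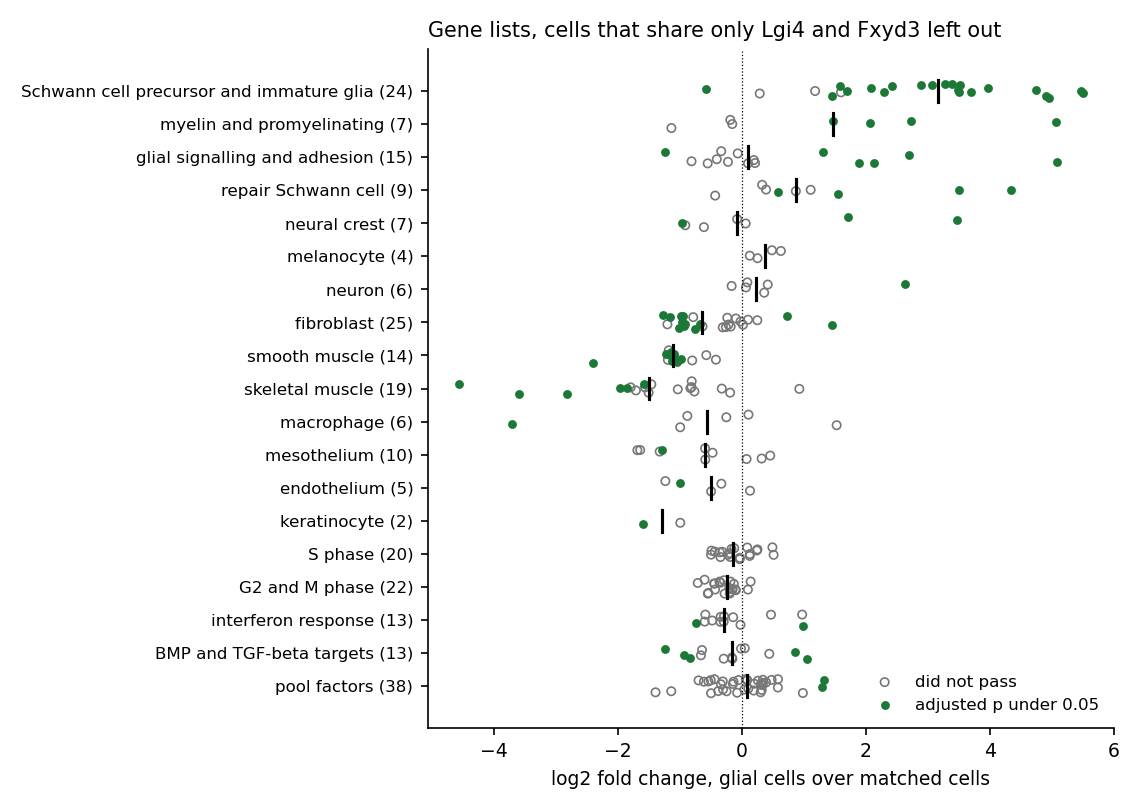
Log2 fold change of each tested gene, core glial cells over matched cells, by gene list (number of genes tested in brackets), with filled points for an adjusted p under 0.05 and a bar at the list's median. Genes with no count in matched cells, such as Foxd3, Gjc3 and Sostdc1, are drawn at their fitted value, which depends on the prior count. Most of the precursor list lies above 2, and the smooth muscle list lies below 0.

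Whether glial cells differed in the delivered factors was examined by the share of cells with each factor transcript. Counts do not tell a delivered transcript from the cell's own. Of 43 factors with a row in the files, 40 were counted in at least 10 cells and were tested by a two-sided sign-flip permutation test over libraries with 100000 resamples, adjusted over the 40. Among all members 3 factors were more often counted (7.5% of those tested) and none less often, and among core cells 4 were (10.0%). All members and their matched cells held a median of 10 different factors per cell, and core cells and theirs a median of 10 and 9.

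Mef2c, a MADS box factor of muscle that neural crest and macrophages also use, differed most. It was counted in 75 of 109 core cells (68.8%) and in 82 of 327 matched cells (25.1%). The mean difference over libraries was 47.8 ± 4.92 points (SE), and the share was higher in 27 of 27 libraries (permutation p = 1e-05, the smallest 100000 resamples can give, adjusted p = 0.0004). With all members the shares were 61.6 and 28.8%, higher in 28 of 29 libraries. By rule genes, the share was 73.1% with 4 or more, 60.0% with 3, 63.6% with another pair than Lgi4 and Fxyd3, 38.9% in the Lgi4-Fxyd3-only cells, 44.5% with 1 and 24.7% with none, at median depths of 7448, 6240, 13013.5, 23812, 15899.5 and 8415 counts. Core cells that held Mef2c had a median of 2 counts of it and at most 6. Matched cells that held it had a median of 1.5 and at most 26. At least 5 counts were found in 8.26% of core cells and 2.14% of matched cells. Non-member cells with skeletal muscle markers were deeper, at a median of 12686.5 counts, and held up to 129 Mef2c counts (median 5). Summed levels of Mef2c had medians of 118 and 37.6 CPM per library (log2 fold change 1.33 ± 0.25, edgeR adjusted p = 5.82e-05), and the change did not pass with all members (0.76 ± 0.24, edgeR adjusted p = 0.0566). Cells with macrophage markers, at a median depth of 21767 counts, held Mef2c in 67.7% of cells.

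Notch1, a receptor of the Notch pathway, was counted in 46.8% of core cells and 22.9% of matched cells, a mean difference of 24.4 ± 6.43 points, higher in 18 and lower in 7 of 27 libraries (permutation adjusted p = 0.0108). Its summed level was also higher (1.30 ± 0.30, edgeR adjusted p = 0.0017). Lbh, a transcription cofactor, was counted in 88.1 and 72.8% of cells (14.9 ± 4.21 points, permutation adjusted p = 0.0221), without a change of its summed level that passed (0.26 ± 0.16). Among all members, the call of Lbh was lost with 1 matched cell per member (permutation adjusted p = 0.133) and with at least 3 rule genes (permutation adjusted p = 0.113). That of Notch1 was lost with 1 matched cell (permutation adjusted p = 0.196) and with at least 2 counts of the factor (permutation adjusted p = 0.058). Tbx3, a T-box factor, was counted in 38.5 and 18.3% of core and matched cells (19.6 ± 5.91 points, permutation adjusted p = 0.025), and did not pass with all members (13.4 ± 5.94 points, permutation adjusted p = 0.206).

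The remaining factors did not pass. The lowest difference was that of Smad4, a mediator of BMP and TGF-beta signals, at 36.7 against 50.8% (-14.7 ± 5.56 points, permutation adjusted p = 0.114). Mef2a, a relative of Mef2c, had 57.8 against 67.0% (-10.7 ± 5.33 points, permutation adjusted p = 0.277). Myod1 was counted in 7.34 against 4.89% of cells and Myocd in 1.83 against 3.06%.

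**Figure D5:**
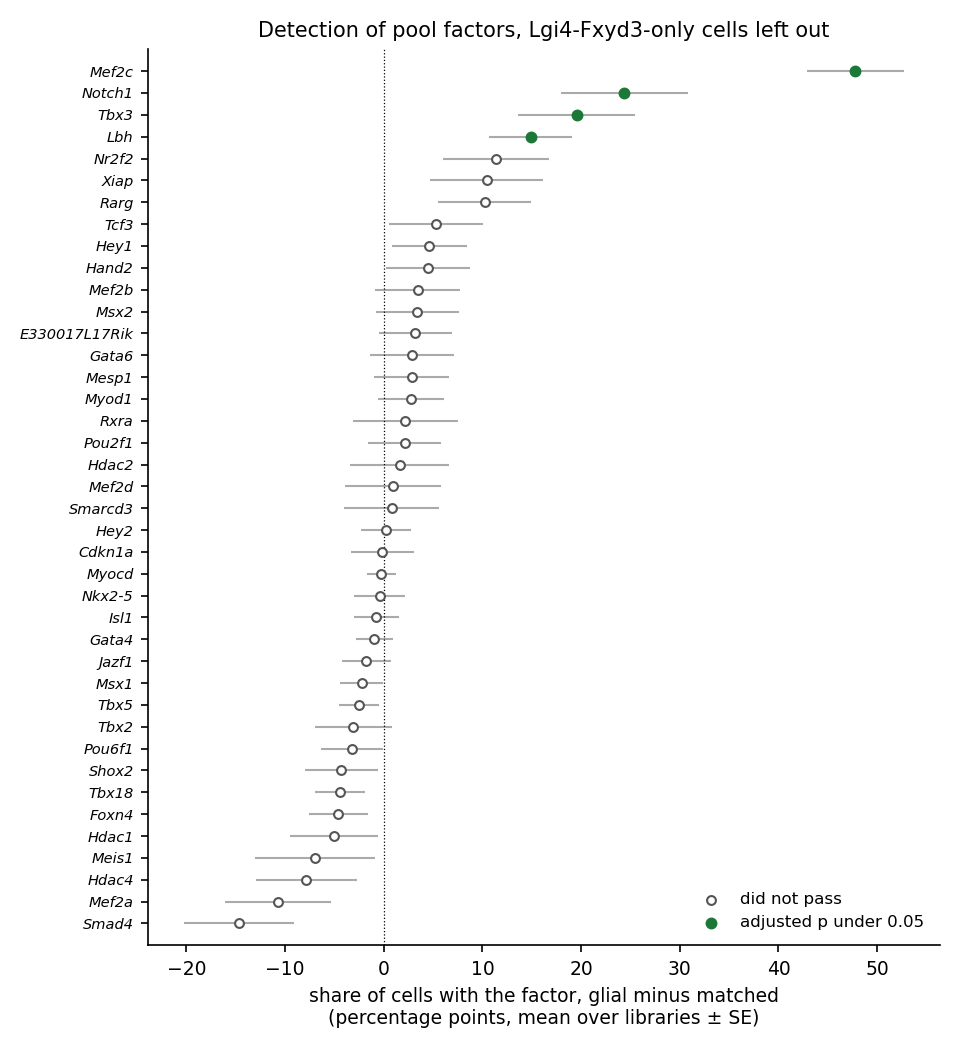
Difference in the share of cells with each of 40 pool factors, core glial cells minus matched cells, in percentage points as the mean over 27 libraries with its standard error, with filled points for a permutation adjusted p under 0.05. Mef2c stands at 47.8 points, followed by Notch1, Tbx3 and Lbh, and the error bars of the factors near the middle reach 0.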

How the data were processed

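The deposited tables hold unique molecular identifier counts per gene and cell barcode, 1 table per sample, which the authors made with bcl2fastq 2.17.1.14, STAR 2.5.3a, UMI-tools and featureCounts 1.5.3 on build mm10, per the submitters' processing notes. The annotation and the strand setting are not given in the sources used here. Of 27998 gene rows, 353 have no symbol in the tables used for names. Of 8730 barcodes, 89 shallower copies of a barcode found in more than 1 sample and 76 that lay 1 base from a deeper barcode of the same library were left out, which left 8565 cells with 119803382 counts (1610 to 208623 per cell, median 8553). The library is the unit of every test, and intervals and the floor of 3 counts cover counting error only.

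Counts were summed per library over members and over 3 matched cells per member. The sums were tested with edgeR 4.0.16 (quasi-likelihood, R 4.3.3) with the library as a block. Genes needed 20 counts, and an adjusted p under 0.05 was a call. The block rests on the design, since members and matched cells of 1 library were processed in 1 run. TMM factors came from counts pooled over libraries, because on simulated data factors of the sparse single sums moved unchanged genes by -0.15 on the log2 scale for all members, with 44 false lower calls, and by -0.23 for the core cells, with 116. In simulated data for all members, 89 of 100 genes changed 2-fold and 100 of 100 changed 4-fold were called. That was among 12877 genes, with 1 false call. For the core cells the numbers were 79 and 100 among 12134 genes, with 1 false higher and 1 false lower call. The changed genes were drawn only from genes with at least 100 counts. All genes were simulated at 1 common dispersion, 0.0791 for all members and 0.0918 for core cells, whereas the fits used a dispersion trend. The totals therefore do not give the power for genes near the filter of 20 counts. Power and false calls in the real data may be less favourable. A gene with few counts that did not pass may still have changed. Fold changes are fitted log2 values of glial over matched cells, and CPM is a gene's counts per 1000000 counts of a sum. The ± beside an edgeR fold change is a standard error worked back from that fold change and its F statistic. It is not a spread of values between libraries.

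The members and lists were chosen with earlier results of these data known. Some genes are not reported here and were taken out of the lists and the label check. Genes named by rule were the 6 rule genes, the 12 called genes that were highest and the 8 that were lowest by log2 fold change, where all 3 series shared the sign and 50 counts were reached, up to 4 called genes per list with the smallest adjusted p, and factors past their test. Further list genes are named with their values, and genes outside this rule were named after their values were seen.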

Additional observations from a re-analysis of the deposited data

How the results depend on the processing

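Against 404 genes higher and 222 lower in all members, DESeq2's Wald test (1.42.0) gave 398 and 211 and its size factors in edgeR 408 and 217. In core cells, with 513 and 337 in edgeR, DESeq2 gave 499 and 307 and its size factors 521 and 325. Leaving out 1 library at a time gave 364 to 423 higher and 172 to 250 lower genes. The fit with no replicate block on the library, which drops the pairing within libraries, gave 495 higher and 223 lower in all members. With 1 matched cell per member 266 were higher and 88 lower, and with Sox10 and 1 other rule gene as the rule 633 and 601. The JD series alone gave 148 and 53, PZ47-PZ48 258 and 130, and PZ58 57 and 22. The number of lower genes was 339 with no filter on low counts, 135 in libraries with at least 3 members, 378 with 3 or more rule genes, 415 without cells that carried muscle, macrophage or mesothelial markers, and 337 without the Lgi4-Fxyd3-only cells. Chosen after seeing the data were the split by Lgi4 and Fxyd3, the single-library omissions, the keeping of barcodes 1 base apart, the single-sum TMM factors (606 lower) and the split of libraries by ribosomal gene Rps27a at 100 CPM. In that split, libraries above it gave 138 higher and 54 lower, and those below it 136 lower. The Lgi4-Fxyd3-only cells alone gave 24 and 17. At an unadjusted p under 0.05, 952 genes were higher and 980 lower in all members, 987 and 1034 in core cells, and 272 and 278 in the Lgi4-Fxyd3-only cells. The 3 factors more often counted became 1 with 1 matched cell per member. The share of 1.75% was 1.01% at 4000 counts per cell and 1.33% with Lgi4 and Fxyd3 as 1 locus.

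Signs turned as follows, and the cause was not tested. In the Lgi4-Fxyd3-only cells alone Apod had -1.04, Cadm4 -0.075, Cnp -0.57, Ets1 -0.049, Gap43 -0.96, Postn -0.75 and Tubb3 -0.38. In DESeq2 Arpp21 had 0.61, Gzmd 0.79, Mmp12 1.16, Mmp8 1.28, Myh3 0.35, Myh6 0.89 and Saa3 1.08, with standard errors of 2.92 to 2.93. Msln had -0.52 with 3 or more rule genes, -1.66 with the Sox10 rule and -0.47 without the Lgi4-Fxyd3-only cells, and Saa3 had 0.17 without the 5% of cells of highest count. Genes under 20 counts, such as Egr2 in core cells, could not be tested at this depth. With 1 culture, no value speaks to other cultures.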
